A study of Mus musculus with 44 samples.

Results

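Somatic-type histone H2B genes were followed in meiotic and post-meiotic male germ cells of adult mice. Their testis H2B, TH2B, was tagged or, per a label that could not be checked here, missing. The members were all array probes annotated to 10 listed genes, H2bc4, H2bc6, H2bc7, H2bc9, H2bc11, H2bc12, H2bc14, H2bc15, H2bc21 and H2bu1-ps, of 19057 named genes with a probe. These genes had 15 probes. Of these, 13 were above background in at least 5 of 44 arrays and were analysed, so that all 10 genes had a measured probe. The other 2 probes, ILMN_2677231 of H2bc4 and ILMN_2676243 of H2bc6, were above background on 0 of 44 arrays.

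RNA of purified spermatocytes (meiotic) and round spermatids (post-meiotic) was hybridised to single-channel Illumina mouse arrays, in 8 groups. In experiment 1, Th2b+/tag mice, with an allele of TH2B that carries His, Flag and Ha tags at the C-terminal end, were compared with wild-type mice, with 6 arrays a group. In experiment 2, mice labelled kd, described as making no TH2B, were compared with wild-type mice, with 5 arrays a group. The sources used here give neither the making of the kd mice nor the purification of the cells. The design calls the replicates biological. The label field for genotype is headed brdt, another gene, while its entries name Th2b, and the groups follow those entries and the titles.

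Histone H2B pairs with H2A, and 2 such dimers complete the nucleosome core. Most H2B copies lie in histone gene clusters, lack introns and are classically transcribed in S phase into messages that end in a stem-loop instead of a poly(A) tail. In testis, germ cells make TH2B (gene H2bc1), which takes the place of most somatic H2B from meiosis until histones are exchanged for protamines. The amplification kit named in the labels starts from the poly(A) tail, so the arrays read tailed RNA. Per the RefSeq annotation, 8 of the 10 genes lie on chromosome 13, H2bc21 lies on chromosome 3, and H2bu1-ps, a transcribed pseudogene, on chromosome 11. The copies code for near-identical proteins, the probe sequences were not used here, and cross-hybridisation between copies was not tested. The copy behind a signal is therefore uncertain.

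Promoters of 7 of the 10 genes, 8 sequences in all because H2bc6 has a pair, were found in the RefSeq table (GRCm38.p6). Shown are the 150 bases before the annotated start of the 3 copies with the largest change in kd-labelled spermatocytes, then H2bc15, which moved in spermatids, and H2bc1 itself. Capitals mark the histone octamer ATTTGCAT, CCAAT and TATAAA on either strand, and all sequences run 5′ to 3′ on the strand of the gene.
H2bc11: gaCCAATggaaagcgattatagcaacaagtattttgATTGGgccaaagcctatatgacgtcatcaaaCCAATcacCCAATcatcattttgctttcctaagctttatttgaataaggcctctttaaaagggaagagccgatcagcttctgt
H2bc14: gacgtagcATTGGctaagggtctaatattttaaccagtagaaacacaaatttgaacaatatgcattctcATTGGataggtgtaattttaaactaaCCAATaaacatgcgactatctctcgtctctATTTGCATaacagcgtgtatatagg
H2bc12: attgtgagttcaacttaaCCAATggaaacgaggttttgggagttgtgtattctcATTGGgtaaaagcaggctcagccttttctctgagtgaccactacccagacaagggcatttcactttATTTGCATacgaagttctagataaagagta
H2bc15: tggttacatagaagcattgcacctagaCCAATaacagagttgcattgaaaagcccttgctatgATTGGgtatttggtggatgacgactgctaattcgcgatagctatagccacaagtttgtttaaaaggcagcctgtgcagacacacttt
H2bc1: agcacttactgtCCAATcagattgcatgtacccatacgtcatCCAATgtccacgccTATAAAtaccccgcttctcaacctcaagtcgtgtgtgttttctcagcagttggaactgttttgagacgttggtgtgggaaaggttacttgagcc
These stretches lie at chr13:22043048-22043197 (plus strand) for H2bc11, chr13:21721894-21722043 (plus) for H2bc14, chr13:22035671-22035820 (plus) for H2bc12, chr13:21753926-21754075 (plus) for H2bc15 and chr13:23934157-23934306 (minus) for H2bc1. Over the full 250 bases before the start, at least 3 copies of CCAAT were found in 8 of 8 member promoters, against 2.79% of 32851 promoters in the table. The octamer was found in 3 of 8 member promoters, those of H2bc12, H2bc14 and 1 of the pair of H2bc6, against 1.6% of all promoters. The promoter of H2bc1, not a member, held 4 copies of CCAAT and 1 octamer, at -164, before the stretch shown. TATAAA was found in 3 of 8 member promoters, against 12.4% of all. These matches began at -209 (H2bc7), -198 (H2bc12) and -190 (H2bc15), more than 150 bases before the start. All motif matches describe letters and were not tested against expression.

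To check the genotype labels, H2bc1 was examined. The signal of ILMN_2589152, its probe, passed background on 0 of 22 wild-type arrays. All 5 of 5 kd-labelled spermatocyte arrays passed, at 5.76, 6.59, 6.81, 6.98 and 6.92 on the log2 scale, against 4.49, 4.79, 4.49, 4.60 and 4.67 in wild-type spermatocytes. The kd-labelled spermatocytes thus exceeded wild type, against the direction of the label (adjusted p = 1.10e-13, limma, on the values given). With wild-type values raised to the lowest level above background on their arrays, the excess was at least 3.27-fold. ILMN_2589152 was above background on 1 of 5 arrays of kd-labelled spermatids, 1 of 6 of tagged spermatids and 0 of 6 of tagged spermatocytes. The probe did not pass background in wild-type cells, where TH2B is made, so its signal cannot decide whether the label holds. The position of this probe relative to the altered stretch of the gene is unknown here, and it checks neither the loss of the protein nor the tag.

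Spermatocyte arrays varied in their level of spermatid markers. The mean log2 level of 12 measured round spermatid marker genes ran from 10.66 to 11.79 in kd-labelled spermatocytes and from 10.63 to 11.06 in wild-type spermatocytes of experiment 2. It ran from 10.82 to 12.33 in tagged and from 10.77 to 12.60 in wild-type spermatocytes of experiment 1, against 12.40 to 12.84 over all spermatid arrays. The arrays nearest to spermatids were replicates 1 and 2 of tagged mice, replicate 1 of their wild type, and replicate 1 of kd-labelled mice. The last of these read 11.79 and the next array, wild-type replicate 2 of experiment 1, read 11.78, so no gap sets the 4 apart. Results on spermatocytes are given with and without these 4 arrays. In whole-population RNA, a different share of cells and a different amount of RNA per cell cannot be told apart.

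In kd-labelled spermatocytes, 7 of 13 member probes, for 6 of 10 genes, rose and none fell (1.50% of all 22605 probes tested were called in either direction, and 0.717% as higher and 0.787% as lower). A call means an adjusted p under 0.05 in limma, with Benjamini-Hochberg adjustment over all tested probes. The risers were H2bc11, H2bc14, H2bc12, H2bc7, both probes of H2bc6, and H2bc9, all in the chromosome 13 cluster. The median log2 difference of the 13 member probes was 1.01, against -0.01 over all tested probes. For 7 of 13 probes the kd-labelled and wild-type arrays did not overlap, against 3.16% of all probes.

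H2bc11 (ILMN_2652511) read 11.42, 11.15, 11.27, 10.76 and 11.20 in kd-labelled spermatocytes, against 9.79, 9.38, 9.30, 9.66 and 8.995 in wild-type spermatocytes, on the log2 scale. The lowest kd-labelled array lay above the highest wild-type array. The difference was 1.73 ± 0.23 (SE), or 3.32-fold, with an adjusted p of 2.36e-06. H2bc14 (ILMN_2891646) read 10.20, 9.98, 10.38, 9.84 and 10.24 in kd-labelled spermatocytes, against 8.57, 8.61, 8.60, 8.33 and 8.09 in wild-type spermatocytes. Its groups were also apart, by 1.69 ± 0.21 or 3.22-fold (adjusted p = 9.02e-07).

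H2bc12 gave 2 answers. Its probe ILMN_2636781 read 10.24, 9.89, 10.09, 9.38 and 9.81 in kd-labelled spermatocytes, against 8.83, 8.78, 8.78, 8.53 and 7.98 in wild-type spermatocytes, a difference of 1.30 ± 0.23 (adjusted p = 0.000588). Its probe ILMN_2655785 had group means of 9.38 in kd-labelled spermatocytes and 9.13 in wild-type ones, with overlapping arrays and a difference of 0.25 ± 0.21 that did not pass (adjusted p = 0.707). The changes seen by the 2 probes differed by 1.05 (exact permutation test over arrays, two-sided, p = 0.00794, the smallest that 5 against 5 arrays allow, and 0.0231 after adjustment over the 24 such tests). Both probes carry the same gene name, and which one follows H2bc12 RNA was not tested.

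H2bc7 rose by 1.17 ± 0.24 (adjusted p = 0.00259), with arrays from 9.50 to 10.62 in kd-labelled and from 8.66 to 9.12 in wild-type spermatocytes. The H2bc6 probes rose by 1.13 ± 0.24 (ILMN_2742592, adjusted p = 0.00378) and 1.01 ± 0.22 (ILMN_1252995, adjusted p = 0.00509), and their changes did not differ past the threshold (exact permutation p = 0.468). H2bc9 rose less, by 0.85 ± 0.23, and passed narrowly (adjusted p = 0.0404). It lost its call without any one of 7 of the 10 arrays, with an adjusted p up to 0.171 without kd-labelled replicate 1.

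The members that did not pass in kd-labelled spermatocytes were H2bc4 (1.20 ± 0.57), H2bc15 (0.45 ± 0.27), H2bc21 (0.01 ± 0.26 and 0.19 ± 0.24) and H2bu1-ps (-0.04 ± 0.19). Without the 4 arrays nearest to spermatids, 7 probes were called, and 304 of all probes in place of 340. With the spermatid marker level as a covariate, 7 were called as well. Among 10 measured peritubular and vascular marker genes, 6 rose in kd-labelled spermatocytes, among them the smooth muscle genes Myl9 (1.88 ± 0.34) and Acta2 (1.84 ± 0.41). The mean level of this list ran from 6.49 to 7.86 in kd-labelled and from 5.42 to 6.28 in wild-type spermatocytes, and its part in the H2B result was not tested.

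In kd-labelled round spermatids, 3 of 13 member probes rose and none fell (1.50% of all probes were called, 0.557% as higher and 0.947% as lower). They were H2bc4, H2bc15 and H2bc9. The median of the 13 probes was 0.46, against 0.00 over all probes, and 8 of 13 probes had groups that did not overlap, against 4.45% of all probes.

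H2bc15 (ILMN_1257520) read 8.01, 7.83, 7.71, 7.85 and 7.66 in kd-labelled spermatids, against 6.69, 6.67, 5.79, 6.84 and 5.60 in wild-type spermatids. All kd-labelled arrays lay above all wild-type arrays, by 1.49 ± 0.27 on average (adjusted p = 0.000660). H2bc4 (ILMN_1242399) read 9.48, 9.18, 9.37, 9.33 and 8.99 in kd-labelled spermatids, against 8.12, 8.15, 5.14, 8.07 and 4.99 in wild-type spermatids. The kd-labelled arrays were tight and above all others, while wild-type replicates 3 and 5 were about 3 log2 units under the other wild-type arrays.

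The difference for H2bc4 was 2.38 ± 0.57, or 5.19-fold (adjusted p = 0.0149). Its size rests on the 2 low wild-type arrays: without wild-type replicate 3 it was 1.90 and no longer passed (adjusted p = 0.109). With only the kd-labelled and wild-type spermatid arrays in the fit the adjusted p was 0.0575. H2bc9 read 9.26, 9.12, 8.50, 8.92 and 8.91 in kd-labelled spermatids, against 8.52, 8.14, 7.89, 8.12 and 7.79 in wild-type spermatids. The lowest kd-labelled and the highest wild-type array crossed. The difference was 0.85 ± 0.23 (adjusted p = 0.0392), and the call was lost without any one of 8 of the 10 arrays (adjusted p up to 0.140). Without wild-type replicate 3, H2bc15 was the 1 member still called.

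The copies that rose most in kd-labelled spermatocytes moved by less in kd-labelled spermatids and did not pass there. H2bc11 read from 12.04 to 12.26 in kd-labelled and from 11.50 to 11.69 in wild-type spermatids (0.57 ± 0.23, adjusted p = 0.300). H2bc14 read from 10.99 to 11.22 in kd-labelled and from 10.57 to 10.93 in wild-type spermatids (0.46 ± 0.21, adjusted p = 0.447). For both copies the groups did not overlap. A fit of these spermatid arrays alone, with a spread of its own, called 6 member probes higher and 1 lower. The higher ones included H2bc11, H2bc14 and H2bc12 ILMN_2636781 (adjusted p = 0.00490, 0.0310 and 0.0264, limma). The lower one was H2bc12 ILMN_2655785 (-0.43, adjusted p = 0.0479). Over all probes, that fit called 483 in place of 340.

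The test of the kd effect in spermatids minus that in spermatocytes called none of the 13 member probes (limma; 0.0487% of all probes were called, 0.00885% as higher and 0.0398% as lower), with 8 at an unadjusted p under 0.05. The smallest adjusted p was 0.185, for H2bc14, whose effect was lower in spermatids by 1.23 ± 0.30 (log2 difference of effects -1.23). Without the 4 arrays nearest to spermatids, H2bc14 (-1.21, adjusted p = 0.00603) and H2bc11 (-1.10, adjusted p = 0.00866) passed. In the fit of experiment 2 alone they passed as well (adjusted p = 0.00175 and 0.00788), as they did with the marker level as a covariate (-1.04 and -0.94, adjusted p = 0.00241 and 0.00548).

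**Figure D1:**
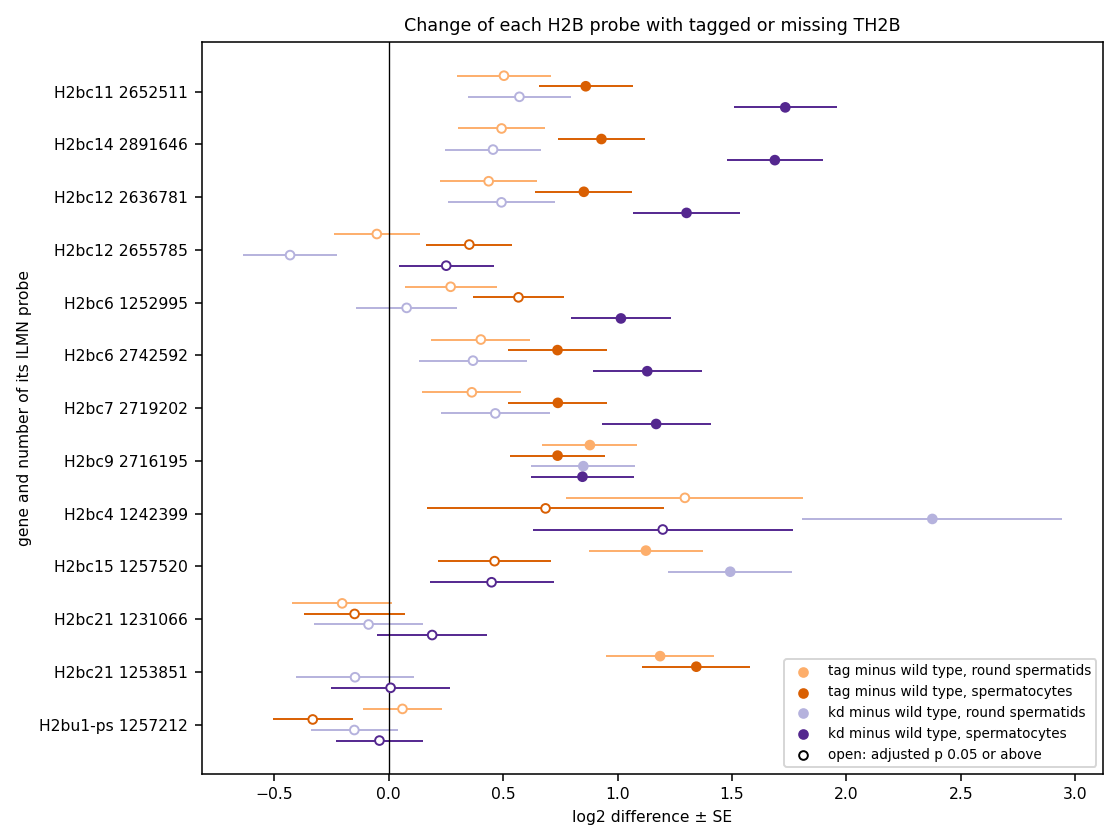
Log2 difference from wild type (± SE) of the 13 H2B probes in tagged and kd-labelled round spermatids and spermatocytes. Filled points passed an adjusted p of 0.05 in limma. The largest values for H2bc11 and H2bc14 are those of kd-labelled spermatocytes, those for H2bc15 and H2bc4 are of kd-labelled spermatids, and H2bc21 ILMN_1253851 passed in tagged cells.

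In tagged spermatocytes, 7 of 13 member probes, each of another gene, rose and none fell (4.76% of all probes were called, 3.67% as higher and 1.09% as lower). The median was 0.74, against -0.03 over all probes. Groups did not overlap for 0 of 13 member probes, against 1.78% of all probes. The probe that rose most was H2bc21 ILMN_1253851, whose arrays ran from 7.71 through a median of 8.71 to 9.68 in tagged spermatocytes, against 6.78 through 7.24 to 8.68 in wild-type spermatocytes. The wild-type array at 8.68 was replicate 1, one of the 4 arrays nearest to spermatids. The difference was 1.34 ± 0.24, or 2.54-fold (adjusted p = 9.68e-05).

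H2bc14 ran from 9.04 through a median of 9.94 to 10.66 in tagged spermatocytes, against 8.43 through 8.82 to 9.93 in wild-type spermatocytes (0.93 ± 0.19, adjusted p = 0.000907). H2bc11 rose by 0.86 ± 0.21 (adjusted p = 0.00547) and H2bc12 ILMN_2636781 by 0.85 ± 0.21 (adjusted p = 0.00818), while its other probe, ILMN_2655785, gave 0.35 ± 0.19 (adjusted p = 0.440). H2bc9, H2bc7 and H2bc6 ILMN_2742592 each rose by 0.74 (adjusted p = 0.0243, 0.0344 and 0.0347). The members that did not pass were H2bc4 (0.68 ± 0.52), H2bc6 ILMN_1252995 (0.57 ± 0.20), H2bc15 (0.46 ± 0.25), H2bc21 ILMN_1231066 (-0.15 ± 0.22) and H2bu1-ps (-0.33 ± 0.17).

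For H2bc11, SDs were 0.67 in tagged and 0.63 in wild-type spermatocytes of experiment 1, against 0.25 in kd-labelled spermatocytes and 0.31 in their wild type. When only these 12 arrays were fitted, none of the 13 member probes passed, with adjusted p between 0.117 (H2bc21 ILMN_1253851) and 0.531 among the 7. H2bc6 ILMN_2742592 and H2bc7 each lost their call in 6 of the 12 fits without 1 array, H2bc9 in 5 and H2bc12 in 2. Leaving out 1 array left between 3 calls (without tag replicate 1) and 9 (without wild-type replicate 1). Without the 4 arrays nearest to spermatids 6 passed, and 781 of all probes; H2bc9 did not (0.50, adjusted p = 0.283). With the replicate number as a block, 8 passed, with H2bc6 ILMN_1252995 added (adjusted p = 0.00122), while calls over all probes numbered 2055 in place of 1077.

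In tagged round spermatids, 3 of 13 member probes rose and none fell (15.5% of all probes were called, 9.22% as higher and 6.26% as lower), and 4 of 13 had groups that did not overlap, against 9.37% of all probes. The median was 0.44, against -0.03 over all probes. H2bc21 ILMN_1253851 ran from 9.74 through a median of 10.03 to 10.12 in tagged spermatids, against 8.44 through 8.69 to 9.50 in wild-type spermatids. These groups were apart, by 1.19 ± 0.24 or 2.27-fold (adjusted p = 0.000175). H2bc15 ran from 5.49 through 6.44 to 7.22 in tagged spermatids, against 4.81 through 5.16 to 5.81 in wild-type spermatids (1.12 ± 0.25, adjusted p = 0.000687). Of these arrays, 6 of 6 tagged and 4 of 6 wild-type ones were above background.

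H2bc9 ran from 7.40 through 8.12 to 8.50 in tagged spermatids, against 6.75 through 7.07 to 7.55 in wild-type spermatids (0.88 ± 0.21, adjusted p = 0.00157). H2bc4 read 6.92, 7.57, 4.39, 5.18, 7.34 and 8.29 in tagged spermatids, against 4.65, 6.81, 5.06, 6.36, 4.72 and 4.33 in wild-type spermatids. The groups overlapped widely, and its difference of 1.29 ± 0.52 did not pass (adjusted p = 0.0874). H2bc11 (0.50 ± 0.21) and H2bc14 (0.49 ± 0.19) had groups that did not overlap but did not pass (adjusted p = 0.0968 and 0.0745). With the replicate number as a block, 9 of 13 member probes passed, as did 5395 of all 22605 probes in place of 3498, and the added members were H2bc4, H2bc6 ILMN_2742592, H2bc7, H2bc11, H2bc12 ILMN_2636781 and H2bc14. The tag effect in spermatids minus that in spermatocytes called none of the 13 probes (limma; 2.48% of all probes were called, 1.91% as higher and 0.571% as lower), and 0 had an unadjusted p under 0.05.

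At 1 of its probes, H2bc21 gave different effects in the tagged mice of experiment 1 and the kd-labelled mice of experiment 2. In every comparison of kd with tag effects, genotype and experiment cannot be told apart. ILMN_1253851 read from 6.64 to 7.01 in kd-labelled spermatocytes, against 6.49 to 6.99 in wild-type spermatocytes, and from 8.28 to 8.64 in kd-labelled spermatids, against 8.34 to 8.96 in wild-type spermatids. The differences were 0.01 ± 0.26 and -0.15 ± 0.26. The kd effect minus the tag effect was -1.34 ± 0.35 in spermatocytes (adjusted p = 0.0270) and -1.33 ± 0.35 in spermatids (adjusted p = 0.00821). The other probe, ILMN_1231066, gave -0.20 ± 0.22 in tagged spermatids, and the tag changes of the 2 probes there differed by -1.39 (adjusted exact permutation p = 0.0231). ILMN_1253851 was the 1 member probe of 13 called in each of these comparisons. In spermatocytes 2.20% of all probes were called, 0.845% as higher and 1.35% as lower, and in spermatids 9.25%, 3.72% as higher and 5.53% as lower. In spermatocytes the call was lost in 7 of the 22 fits without 1 array, with an adjusted p up to 0.0600 without tag replicate 2. It was also lost in a fit of the 4 spermatocyte groups alone (adjusted p = 0.195).

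For H2bc11 the kd effect in spermatocytes exceeded the tag effect by 0.87 ± 0.31 (95% interval 0.26 to 1.49) and did not pass (adjusted p = 0.160). It passed without the 4 arrays nearest to spermatids (0.97, adjusted p = 0.00424). For H2bc14 the values were 0.76 ± 0.28 (adjusted p = 0.209) and, without those arrays, 0.88 (adjusted p = 0.0175). For the members other than H2bc21 ILMN_1253851, H2bc11 and H2bc14, the 95% intervals of this difference included 0.

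**Figure D2:**
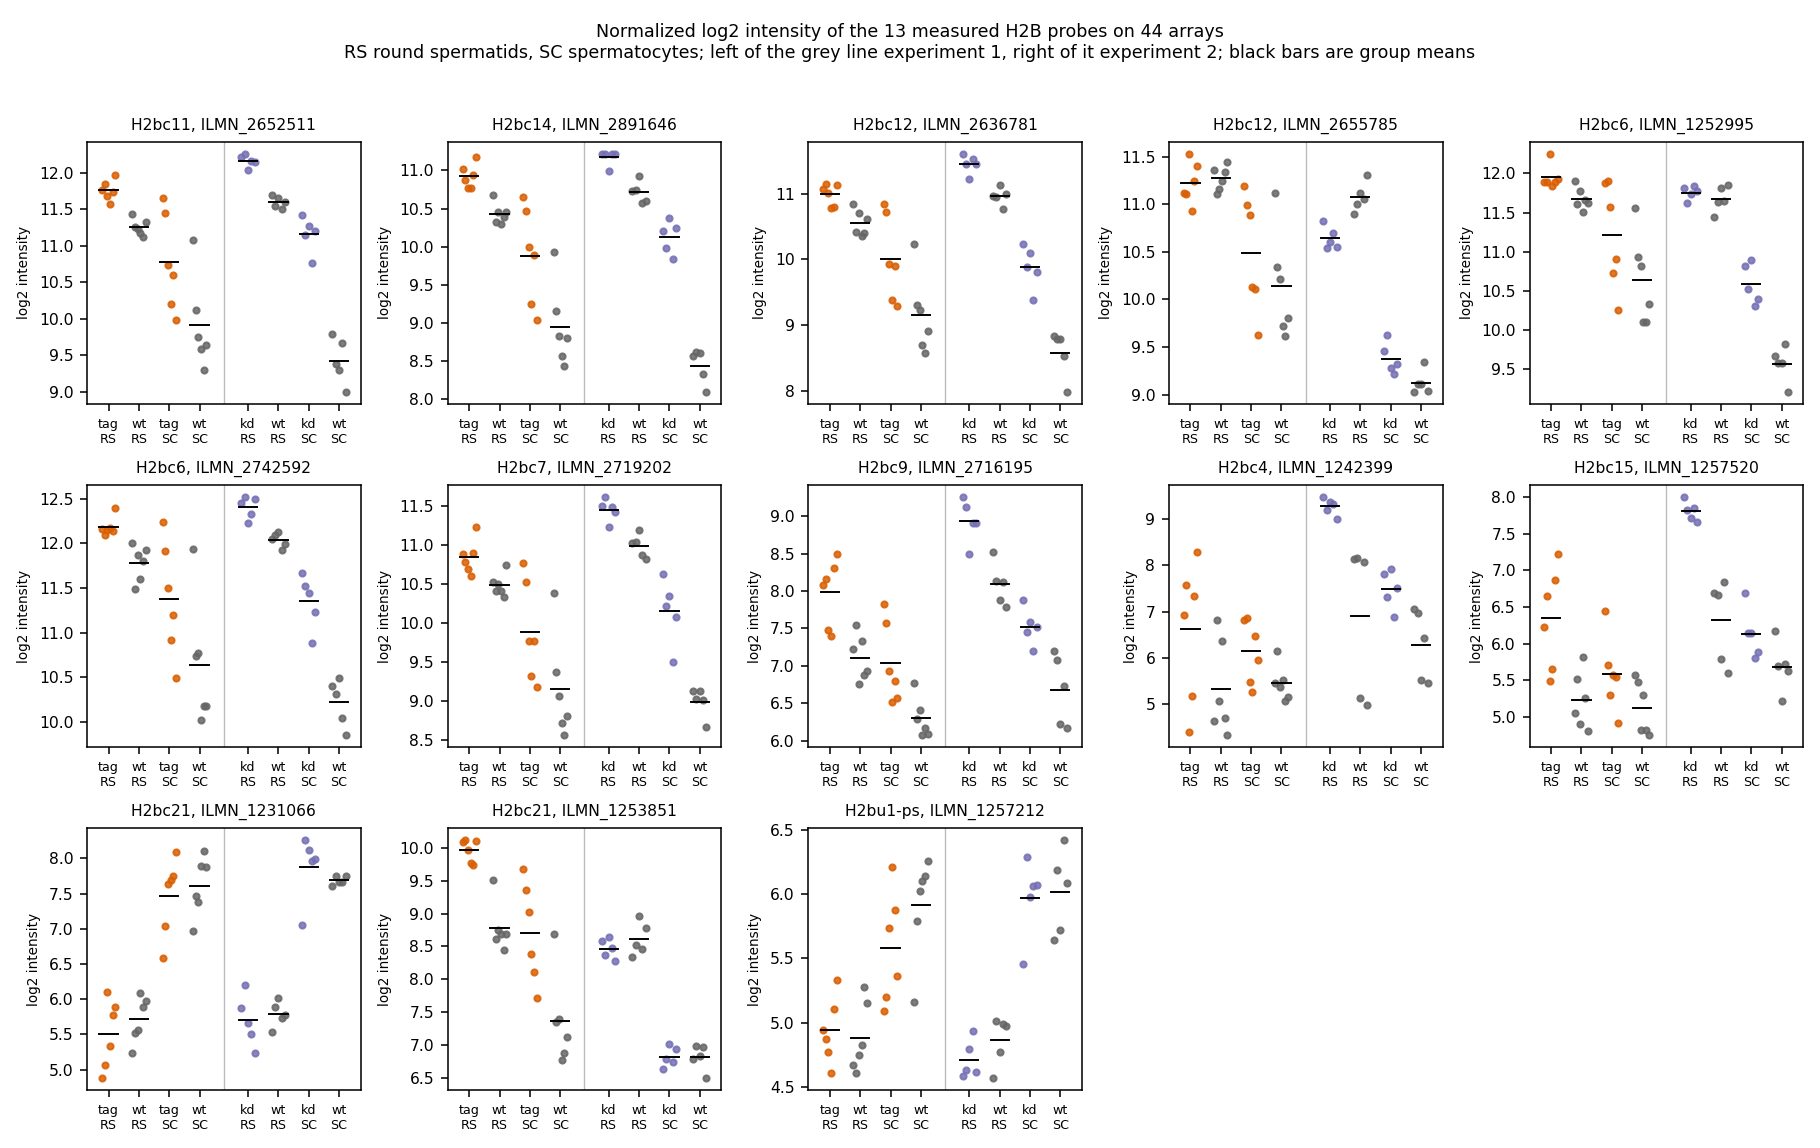
Normalized log2 intensity of each measured H2B probe on every array (points) with the group mean (bar), tagged or kd-labelled arrays coloured and wild-type arrays grey. The scale differs between panels. For H2bc11 the 5 kd-labelled spermatocyte arrays lie between 10.76 and 11.42, above the 8.995 to 9.79 of their wild type, and for H2bc4 the wild-type spermatid arrays of experiment 2 fall near 8 or near 5.

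After meiosis most copies were higher. In wild-type spermatids of experiment 1, 9 of 13 member probes were higher than in spermatocytes and 2 were lower (26.7% of all probes were called higher and 32.0% lower, together 58.6%). In experiment 2, 10 were higher and 2 lower (25.9% higher and 33.5% lower, together 59.4%). In tagged mice 10 were higher and 2 lower (28.7% and 30.2%, together 58.8%), and in kd-labelled mice 11 and 2 (26.0% and 32.9%, together 59.0%). Most probes were called in these comparisons, so a call alone says little. Without the spermatocyte arrays nearest to spermatids, 9 were higher and 2 lower in wild-type mice of experiment 1, 10 and 2 in tagged mice, and 11 and 2 in kd-labelled mice. Markers of other cells moved with stage too. All 4 measured Leydig cell genes were lower in spermatids in each of the 4 sets of mice, with a mean level of 5.97 to 7.29 over spermatid arrays, against 8.47 to 9.92 over spermatocyte arrays. Of 7 measured macrophage and blood genes, 7 were higher in wild-type spermatids of experiment 1 and 4 in those of experiment 2. Their mean level ran from 5.60 to 7.03 over spermatid arrays, against 4.64 to 5.73 over spermatocyte arrays. The part of these cells in the H2B values was not tested. The medians of the 13 probes were 1.14 and 1.82 in the wild types of experiments 1 and 2, against -0.03 and -0.04 over all probes.

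H2bc14 read 10.73, 10.74, 10.93, 10.57 and 10.60 in wild-type spermatids of experiment 2, against 8.57, 8.61, 8.60, 8.33 and 8.09 in wild-type spermatocytes, a difference of 2.27 ± 0.21 or 4.84-fold (adjusted p = 1.96e-12). H2bc12 ILMN_2636781 differed by 2.38 ± 0.23, or 5.22-fold, and H2bc11 by 2.17 ± 0.23, or 4.49-fold. In these 3 the spermatid and spermatocyte arrays of experiment 2 did not overlap. In the wild types of experiment 1 the same probes differed by 1.48 ± 0.19 (H2bc14), 1.40 ± 0.21 (H2bc12) and 1.34 ± 0.21 (H2bc11), where the spermatocytes had the higher spermatid marker levels given above.

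H2bc6 was higher in wild-type spermatids by 1.04 ± 0.20 and 1.14 ± 0.22 in experiment 1 and by 2.10 ± 0.22 and 1.82 ± 0.24 in experiment 2. H2bc7 was higher by 1.34 ± 0.22 and 2.01 ± 0.24, and H2bc9 by 0.81 ± 0.21 and 1.41 ± 0.23, in experiments 1 and 2. With median centring in place of quantile normalization, H2bc9 did not pass in experiment 1 (0.40, adjusted p = 0.134). The pair of H2bc12 probes, apart in every genotype comparison (adjusted exact permutation p = 0.0231 in each), both passed as higher in spermatids in all 4 comparisons of stage.

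H2bc15 and H2bc4 did not pass in wild type of experiment 1, and H2bc4 did not in experiment 2. H2bc15 ran from 4.81 through 5.16 to 5.81 in wild-type spermatids of experiment 1, against 4.75 through 5.06 to 5.57 in spermatocytes, a difference of 0.11 ± 0.25 (adjusted p = 0.743). In experiment 2 it was higher in wild-type spermatids by 0.63 ± 0.27, a call (adjusted p = 0.0424) lost without any one of 7 of the 10 arrays. In kd-labelled mice it was higher in spermatids by 1.67 ± 0.27 (adjusted p = 8.87e-07) and in tagged mice by 0.77 ± 0.25 (adjusted p = 0.00696; 0.172 with median centring). H2bc4 was higher in spermatids of kd-labelled mice (1.78 ± 0.57, adjusted p = 0.00628) and did not pass in tagged mice (0.48 ± 0.52) or in wild-type mice of experiment 1 (-0.13 ± 0.52) or 2 (0.61 ± 0.57).

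H2bc21 had a probe that rose and one that fell. ILMN_1253851 read 8.34, 8.53, 8.96, 8.46 and 8.79 in wild-type spermatids of experiment 2, against 6.79, 6.99, 6.84, 6.97 and 6.49 in wild-type spermatocytes (1.80 ± 0.26, adjusted p = 7.56e-08). ILMN_1231066 read 5.54, 5.89, 6.02, 5.73 and 5.77 in those spermatids, against 7.61, 7.75, 7.67, 7.66 and 7.76 in those spermatocytes (-1.90 ± 0.24, adjusted p = 4.23e-09). Neither pair of groups overlapped. The stage changes of the 2 probes differed by -3.21 to -3.82 across the 4 comparisons, with the smallest exact permutation p each allows (0.00216 for 6 against 6 arrays and 0.00794 for 5 against 5, each 0.0231 after adjustment over 24 tests).

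H2bu1-ps was lower in wild-type spermatids, by -1.03 ± 0.17 in experiment 1 and -1.15 ± 0.19 in experiment 2 (adjusted p = 1.88e-06 and 1.30e-06). It was above background on 2 of 6 and 2 of 5 of these spermatid arrays, so the sizes are approximate. In kd-labelled mice it was above background on 0 of 5 spermatid and 5 of 5 spermatocyte arrays, and was at least 2.06-fold higher in spermatocytes.

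**Figure D3:**
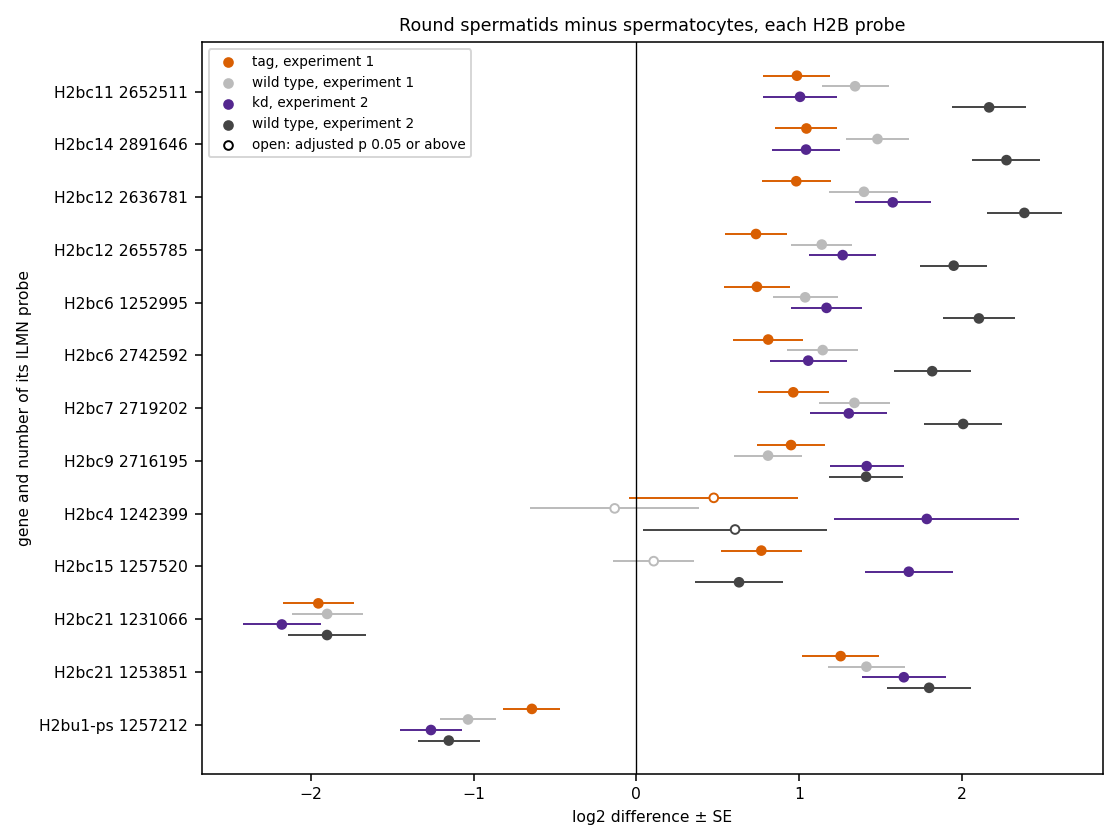
Log2 difference of round spermatids minus spermatocytes (± SE) for the 13 H2B probes in tagged, kd-labelled and both sets of wild-type mice. Filled points passed an adjusted p of 0.05 in limma. Most probes lie to the right of 0, H2bc21 ILMN_1231066 and H2bu1-ps lie to the left, and H2bc4 and H2bc15 lie near 0 in wild type of experiment 1.

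After each group's mean was removed, the 7 probes of H2bc6, H2bc7, H2bc11, H2bc12 and H2bc14 correlated with each other over the 44 arrays at Pearson r between 0.79 and 0.95 (21 pairs, median 0.90). H2bc4 correlated with H2bc15 at 0.83 and with H2bc9 at 0.71, and with H2bc11 at 0.29 and H2bc14 at 0.24. H2bc9 lay between, at 0.71 with H2bc11 and 0.68 with H2bc7, and H2bc15 correlated with H2bc11 at 0.50. H2bc21 ILMN_1253851 went with all 7 probes of H2bc6, H2bc7, H2bc11, H2bc12 and H2bc14, from 0.765 (H2bc7) to 0.87 (H2bc6 ILMN_1252995). It went against ILMN_1231066 of its own gene (-0.56). These points share arrays, cell preparations and any signal common to near-identical copies, and the values are descriptions.

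H2bc4 split within groups, in part along replicate numbers. In experiment 2, wild-type replicates 1, 2 and 4 were high in spermatids (8.12, 8.15 and 8.07) and read 7.05, 6.97 and 6.44 in spermatocytes. Replicates 3 and 5 were low in spermatids (5.14 and 4.99) and read 5.52 and 5.46 in spermatocytes. In tagged mice, replicates 3 and 4 were the lowest in spermatids (4.39 and 5.18) and in spermatocytes (5.48 and 5.27). H2bc15 was lowest in the same wild-type spermatids of experiment 2 (5.79 and 5.60) and the same tagged spermatids (5.49 and 5.65). The kd-labelled arrays showed no such gap, at 8.99 to 9.48 in spermatids and 6.89 to 7.93 in spermatocytes. Tagged replicate 6, highest for H2bc4 in spermatids (8.29), read 5.96 in spermatocytes, where replicate 2 was highest (6.85). Over all probes, same-numbered tagged arrays of both stages correlated at r from -0.02 to 0.45 after group means were removed. The samples were not regrouped by the H2bc4 split, and its source was not tested.

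**Figure D4:**
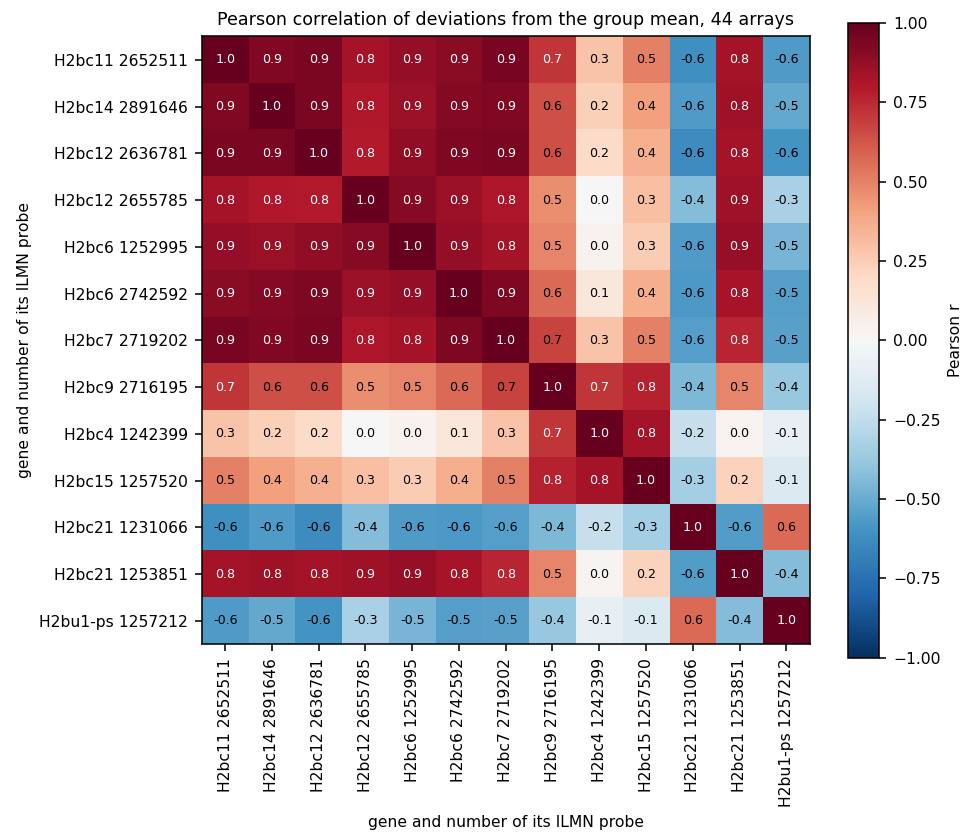
Pearson correlation between the 13 H2B probes over 44 arrays, computed on deviations from group means. The probes of H2bc11, H2bc14, H2bc12, H2bc6 and H2bc7 form a block of values from 0.79 to 0.95. H2bc21 ILMN_1253851 stands at 0.765 to 0.87 with the probes of that block. H2bc4 and H2bc15 are joined at 0.83, and the 2 probes of H2bc21 stand at -0.56.

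Over the 44 arrays without removing group means, the profile most like that of H2bc11 was H2bc14 (r = 0.988), when each gene was taken by its probe of highest mean. H2bc4 was most like H2bc15 (0.91) and H2bc9 (0.79). Outside the family, H2bc21 ILMN_1253851 was most like the histone H3 genes H3c4 and H3c6 and the phosphatase gene Dusp4 (each 0.98), H2bu1-ps was most like Rtraf (0.94), and H2bc12 ILMN_2655785 was most like the phosphatase gene Ppm1a (0.97).

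H2A, the partner of H2B, is coded by neighbouring genes. Of 15 measured clustered H2A genes, 0 passed in either tagged or kd-labelled cells of either type (limma). The shares of all probes called were 4.76% in tagged spermatocytes, 15.5% in tagged spermatids and 1.50% in each kd-labelled cell type. Unadjusted p was under 0.05 (limma) for 0 of these genes in either tagged cell type. It was so for 5 in kd-labelled spermatocytes and 6 in kd-labelled spermatids. Among the nearest H2A neighbours, in kd-labelled spermatocytes H2ac11, beside H2bc11, differed from wild type by 0.34 ± 0.27 (adjusted p = 0.679), H2ac12, beside H2bc12, by 0.86 ± 0.33 (adjusted p = 0.220) and H2ac7, beside H2bc7, by 0.72 ± 0.29 (adjusted p = 0.266). H2ac15, beside H2bc15, differed by 0.76 ± 0.31 (adjusted p = 0.266, limma) in kd-labelled spermatocytes and by 0.99 ± 0.31 (adjusted p = 0.106) in kd-labelled spermatids. The neighbours H2ac10, H2ac20 and H2aw differed by 0.29 or less in both kd-labelled cell types. Whether H2A and H2B genes differed in their response was not tested. After meiosis, 6 of the 15 H2A genes were higher and 1 lower in wild-type spermatids of experiment 2, with H2ac21 (1.00 ± 0.18) and H2ac12 (1.14 ± 0.33) among the higher. Of all probes, 25.9% were called higher and 33.5% lower there. In experiment 1, 1 was higher and 1 lower, against 26.7% and 32.0% of all probes. Of the other H2B genes only H2bc1 and the testis variant gene H2bl1 were measured, and H2bl1 was higher in wild-type spermatids by 1.59 ± 0.28 in experiment 1 and by 2.63 ± 0.30 in experiment 2.

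Among 9 measured genes for H2A-H2B import, chaperones and H2B ubiquitination, 1 fell in kd-labelled spermatocytes and the same one in kd-labelled spermatids. Of all probes, 0.787% and 0.947% were called lower there. The gene was Ipo9, the importin that carries H2A-H2B dimers into the nucleus, at -1.69 ± 0.24 (adjusted p = 9.68e-06, limma) and -1.77 ± 0.24 (adjusted p = 3.96e-06). Its kd effect differed from its tag effect by -1.53 ± 0.32 in spermatocytes and -1.59 ± 0.32 in spermatids (adjusted p = 0.00306 and 0.000363). After meiosis the histone chaperone genes Nap1l1 and Nap1l4 were lower in wild-type spermatids, by -1.99 ± 0.19 and -1.82 ± 0.17 in experiment 2. There, 4 of the 9 genes were lower and 2 higher, against 33.5% and 25.9% of all probes.

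S phase is when clustered histone genes are classically transcribed. Of 20 measured genes for DNA replication in S phase, 0 passed in kd-labelled spermatocytes or spermatids (limma). This is near the 1.50% of all probes called in each of these comparisons. An unadjusted p under 0.05 (limma) was reached by 0 and 3 of these genes. In wild-type spermatids of experiment 2, 11 were lower and 3 higher than in spermatocytes, against 33.5% of all probes lower and 25.9% higher. The replication helicase factor Gins2 stood at -1.50 ± 0.18 and the cyclin gene Ccne2 at -1.78 ± 0.22. In tagged spermatids 1 of the 20 genes rose, Ccne2 (1.71 ± 0.20), and 1 fell, the topoisomerase gene Top2a (down by 0.42 ± 0.12). Of all probes, 9.22% were called higher and 6.26% lower in tagged spermatids. Of 12 measured genes for histone mRNA synthesis and 3′ end processing, 0 passed in kd-labelled spermatocytes or spermatids (limma), again near 1.50%. An unadjusted p under 0.05 (limma) was reached by 1 and 2 of them. In tagged spermatids 1 of the 12 genes rose, the snRNA processing gene Ints9 (0.51 ± 0.13), and 1 fell, the cleavage scaffold gene Sympk (-0.62 ± 0.17). These counts are near the shares of all probes given above for tagged spermatids. In wild-type spermatids of experiment 2, 3 of the 12 genes were higher and 6 lower, against 25.9% and 33.5% of all probes.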

How the data were processed

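RNA of 44 mouse samples was measured on single-channel Illumina arrays with 45281 probes. Per the labels' protocols, total RNA was amplified and labelled as biotinylated cRNA with the Illumina TotalPrep kit. The deposited raw table holds each probe's summary intensity and detection p-value per array, without normalization, and detection p-values move in steps of 1 in 936. The authors' processed table holds linear intensity, quantile normalized per the labels, with array medians near 104.3, and served as an alternative. Array medians of raw intensity ran from 91.4 to 119, and 15997 to 19348 probes per array were above background (detection p under 0.05). The number of arrays limits the precision.

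Groups came from sample titles. From the raw intensities, neqc in limma 3.58.1 (R 4.3.3) subtracted background with normexp, added an offset of 16, quantile normalized and took log2. Probes above background in at least 5 arrays were kept, 22605 in all, of which 18813 have a gene name. A model of 8 group means on all 44 arrays was fitted with lmFit and eBayes, and p-values were adjusted by Benjamini-Hochberg over all 22605 probes, with calls at 0.05. The 12 comparisons were each genotype with its own wild type, within spermatocytes and within spermatids, the stages within each of the 4 sets of mice, and differences between these effects. All 13 measured member probes are reported; other genes come from set lists and are those that passed, the H2A neighbours, and the profiles most like a member's. Members and lists were chosen with earlier results of these data known. The fit was tested on simulated data.

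Same-numbered samples deviated together most clearly for tagged against wild-type spermatocytes (r from 0.21 to 0.84) and spermatids (0.15 to 0.39). The same held between stages in both wild types (0.12 to 0.55 and 0.15 to 0.34). Other ranges reached lower and were not counted as paired. They were 0.03 to 0.43 between stages in kd-labelled mice and -0.02 to 0.45 in tagged mice. For kd-labelled against wild-type cells they were -0.05 to 0.37 in spermatocytes and -0.02 to 0.12 in spermatids. This pairing comes from the data, as the labels name no shared animal. Alternatives covered the authors' values, centring, filters, the groups fitted, the replicate block, probe choice, left-out arrays and, chosen after seeing the data, a marker covariate.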

Additional observations from a re-analysis of the deposited data

Results flagged for a closer look

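In 104 probe and group pairs screened, 8 had an array far from the rest of its group, and chance flags about 1 in 20. The highest array of its group was tagged spermatid replicate 3 for H2bc6 ILMN_1252995 (12.25, next 11.94), tagged spermatid replicate 6 for H2bc6 ILMN_2742592 (12.40, next 12.17) and wild-type spermatocyte replicate 4 of experiment 2 for H2bc12 ILMN_2655785 (9.35, next 9.11). The lowest array of its group was wild-type spermatocyte replicate 5 of experiment 2 for H2bc7 (8.66, next 9.01), kd-labelled spermatid replicate 3 for H2bc14 (10.99, next 11.21) and kd-labelled spermatocyte replicate 1 for H2bc21 ILMN_1231066 (7.05, next 7.97). For H2bc21 ILMN_1253851, wild-type replicate 1 of experiment 1 stood highest in spermatids (9.50, next 8.75) and in spermatocytes (8.68, next 7.39).

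The kd effect on H2bc21 ILMN_1253851 differed from the tag effect by -1.34 in spermatocytes and -1.33 in spermatids on the log2 scale, each tested as a difference of effects in limma.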

How the results depend on the processing

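Member calls in kd-labelled spermatocytes (7) and between stages changed little with the authors' values, centring, filters or probe choice. For tagged spermatocytes 7 calls became 4 without the filter on dim probes (more probes tested) and 0 with only the groups compared in the fit. In that fit tagged spermatids had 8 calls in place of 3, kd-labelled spermatids 7 in place of 3, the kd effect between stages 2 in place of 0, and the kd against tag effect in spermatocytes 0 in place of 1, as it also had with the authors' values and without the filter. With the replicate block these counts were 9, 6, 1 and 3, and no other count of calls moved by over 1.5 times; numbers in experiment 2 genotypes did not pair, so those values rest on a shared number. Without the 4 spermatocyte arrays nearest to spermatids, the kd effect between stages had 2 calls and kd against tag in spermatocytes 3.

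Leaving out 1 array gave 3 to 9 calls in tagged spermatocytes, 1 to 3 in kd-labelled spermatids and 0 to 1 for kd against tag in spermatocytes.

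With the marker level as a covariate, an alternative chosen after seeing the data and run for all 12 comparisons, tagged spermatids had 10 calls, kd-labelled spermatids 6, the kd effect between stages 2 and kd against tag in spermatocytes 3. Between stages this covariate takes up the contrast itself, and calls fell to 3 and 2 in wild types of experiments 1 and 2, and to 1 each in tagged and kd-labelled mice. There, 8 called values turned: H2bc15 in wild type of experiment 2 (-0.51), the H2bc6 probes in tagged (-0.057 and -0.081) and kd-labelled mice (-0.17 and -0.43), and H2bc7 (-0.23), H2bc11 (-0.45) and H2bc14 (-0.22) in kd-labelled mice.

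Median centring put the median of all probes at -0.16 to -0.11 in stage comparisons. A slide block was not run, as the files give no slides. Probes near background (H2bc4, H2bc15, H2bu1-ps) have approximate sizes.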
